A study of Mus musculus with 8 samples.

Results

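The genes named Cep (centrosomal protein) followed by digits were described in Kupffer cells, the macrophages that line the blood vessels of the liver, early in experimental sepsis. Members were chosen by symbol, as Cep, digits and optional letters, and by a minimum of 10 pooled reads over the 8 libraries. All 37 symbols of that form reached the minimum, among 55414 genes in the count table, so the pooled reads removed no gene. The rule itself reads no difference between the groups. The members and the lists of other genes were, however, chosen with earlier results of these data known, so their counts are a description. The members nearest to the minimum were Cep126 with 25 pooled reads and Cep112it with 77. Cep83os and Cep112it are non-coding transcripts named after a neighbouring Cep gene, and the other members are annotated as protein coding. Symbols of another form (Cep57l1) and genes that later releases call Cep (Fopnl, Fgfr1op) are no members.

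RNA-seq libraries were made from Kupffer cells that had been isolated by FACS from liver. The mice of both groups were wild-type C57BL/6J, and the sources used here give neither their age nor their sex. In the CLP group (4 libraries) the caecum was tied off and punctured, so that gut bacteria leak into the abdomen, and in the Sham group (4 libraries) the surgery was a sham operation. Livers were taken 2 h after surgery in both groups. Library totals ran from 23311897 to 28724875 reads. The labels number the samples as replicates without naming a mouse for each, and the p-values therefore reflect sample-to-sample spread, which may be technical.

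The centrosome is the main microtubule-organizing centre of an animal cell. It holds a pair of centrioles in a cloud of pericentriolar material, which anchors the gamma-tubulin rings from which microtubules grow. New centrioles form on old ones in the cell cycle, and in resting cells the older centriole can dock at the membrane and template a primary cilium. Macrophages use the centrosome mainly to organize microtubules for migration, uptake and secretion, and most resting tissue macrophages are outside the cell cycle. Cep proteins are a naming group rather than a sequence family: they share a location and, in many cases, long coiled coils.

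At 2 h after CLP, transcripts of most Cep genes were lower than after sham surgery, and 2 were higher. Of 37 members, 35 passed the filter on low counts, and Cep112it and Cep126 did not. Of these 35, 22 fell and 2, Cep85 and Cep83, rose, past an adjusted p of 0.05 in edgeR's quasi-likelihood test over 14655 genes, while 11 did not pass. Across all genes tested, 29.5% fell and 24.9% rose, against 62.9% and 5.71% of the Cep genes tested. A fall of at least 2-fold was found in 15 Cep genes, against 15.9% of all genes. In 20 Cep genes every CLP library lay below every Sham library, against 27.3% of all genes. The median log2 fold change was -0.78 for the 35 Cep genes and -0.04 for all genes tested. Fold changes are relative to library sizes set by TMM, the trimmed mean of M-values, a scaling built on the premise that most genes do not shift. In bulk RNA, fewer cells of a type and less RNA per cell cannot be told apart.

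**Figure D1:**
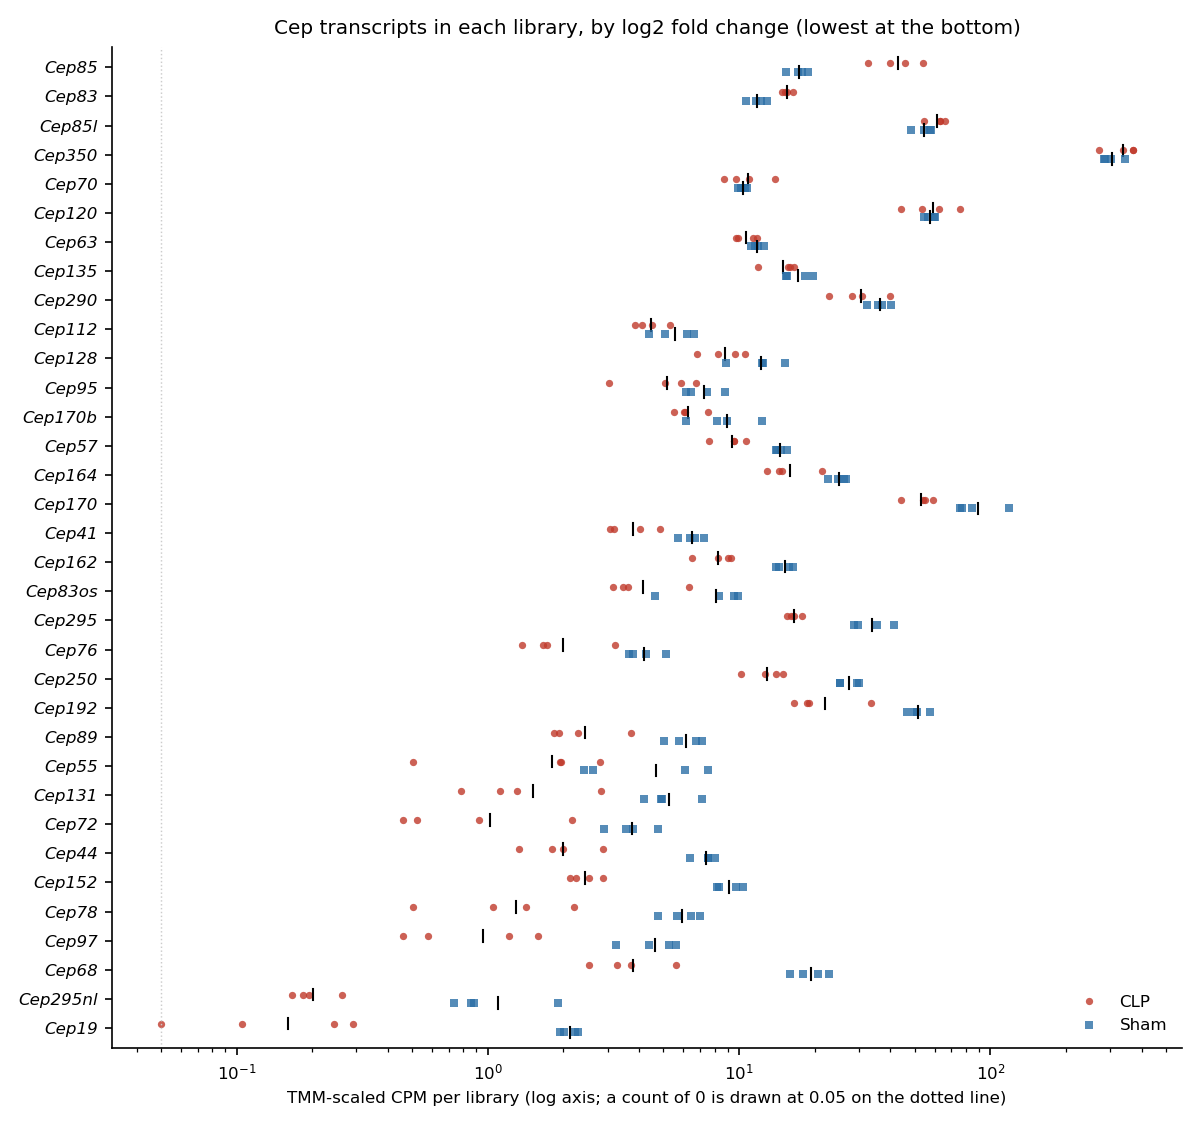
TMM-scaled CPM (log axis) of 34 tested Cep genes in each library, 4 CLP (circles) and 4 Sham (squares), with black ticks at the group means. Genes run from the largest fall (Cep19, bottom) to the largest rise (Cep85, top), and the groups separate at both ends while they overlap in each gene from Cep170b up to Cep85l.

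Among genes for proteins of centriole duplication and the pericentriolar material, transcripts of 6 of 10 fell and those of 1, Cep85, rose. Over all genes tested, 29.5% fell and 24.9% rose. Values per library are given as CPM (library reads scaled to a common total by TMM) in the order of replicates 1 to 4. Cep152, a scaffold that brings the duplication kinase PLK4 to the old centriole, was at 2.12, 2.88, 2.52 and 2.24 in CLP and at 8.16, 8.35, 10.3 and 9.72 in Sham. The groups were far apart and the CLP libraries close together, with -1.90 ± 0.17 (SE) as log2 fold change (edgeR adjusted p = 1.25e-05). Cep192, a scaffold that gathers the mitotic kinases and pericentriolar material, was at 33.6, 18.6, 16.6 and 19.0 in CLP and at 46.8 to 57.6 in Sham (-1.23 ± 0.21, edgeR adjusted p = 0.000575). CLP replicate 1 lay well above the other CLP libraries for Cep192 and still below every Sham library. Cep44 and Cep295 both act when a new centriole is converted into a centrosome. Cep44 fell from 7.37 ± 0.69 in Sham to 2.00 ± 0.645 in CLP (SD, n = 4), a log2 fold change of -1.88. Cep295 fell from 33.8 ± 5.88 to 16.5 ± 1.00 (-1.03), with no overlap between the groups for either gene. Cep76, which limits centriole duplication to a single round, and Cep57, which ties pericentrin to the centriole, had log2 fold changes of -1.07 ± 0.28 and -0.64 ± 0.13.

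Cep63, the binding partner of Cep152, did not pass. Its CPM values were 9.86, 9.74, 11.4 and 11.8 in CLP and 11.2, 12.5, 11.6 and 11.9 in Sham, and the ranges overlapped (log2 fold change -0.14 ± 0.12, edgeR adjusted p = 0.35). Cep135, part of the cartwheel and centriole wall, had -0.20 ± 0.14, and Cep120, a centriole elongation factor, had 0.03 ± 0.15. Neither passed. The spread of Cep120 was wider in CLP, at 43.9 to 75.5 CPM, than in Sham, at 54.5 to 60.0 CPM, and its highest value was in CLP replicate 1. Without that library its log2 fold change was -0.11 (edgeR adjusted p = 0.426).

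Cep85 (ENSMUSG00000037443) had the largest rise. The protein binds the duplication factor STIL and restrains the kinase NEK2, which separates centrosomes. It was at 32.7, 39.8, 45.7 and 54.0 CPM in CLP and at 15.4, 17.1, 18.9 and 17.8 CPM in Sham. Every CLP library lay above every Sham library, with a 2.49-fold higher level (log2 fold change 1.32 ± 0.15, edgeR adjusted p = 5.21e-05). With scaling by total counts alone the log2 fold change of Cep85 was 0.76 and it still passed (edgeR adjusted p = 0.00196). Its promoter window is shown because it was the Cep gene with the largest increase. The window (RefSeq, GRCm38.p6, chr4:134187036-134187335, minus strand, 250 bases before to 50 after the start) holds, in capitals, 1 ETS core, CCGGAA, and 2 NF-Y boxes, CCAAT on the other strand.
Cep85 promoter: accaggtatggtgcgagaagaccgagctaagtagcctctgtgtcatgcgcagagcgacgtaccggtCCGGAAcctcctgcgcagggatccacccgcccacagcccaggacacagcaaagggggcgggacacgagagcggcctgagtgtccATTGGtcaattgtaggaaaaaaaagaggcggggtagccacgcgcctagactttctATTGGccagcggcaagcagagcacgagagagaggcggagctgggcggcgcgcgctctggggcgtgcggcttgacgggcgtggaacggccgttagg

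Of 8 genes for the centriole ends, the appendages and the linker, transcripts of 6 fell and those of 1, Cep83, rose. The shares over all genes tested were 29.5% and 24.9%. Cep68 and Cep250 are proteins of the fibrous linker that holds the pair of centrioles together. Cep68 was at 5.62, 3.72, 2.52 and 3.27 CPM in CLP and at 16.0, 18.0, 22.7 and 20.6 CPM in Sham, a 5.09-fold lower level (-2.35 ± 0.23, edgeR adjusted p = 2.0e-05). The groups did not overlap. Cep250, which anchors the linker at the centriole base, was at 14.9, 10.2, 12.6 and 14.1 CPM in CLP and 25.1, 25.3, 29.6 and 29.9 CPM in Sham (-1.08 ± 0.14, edgeR adjusted p = 9.92e-05). Both of these linker genes were thus lower in 4 of 4 CLP libraries. Cep250 shares 11.1% of its exonic bases with 6430550D23Rik on the other strand (111 pooled reads), and without the strand setting such reads cannot be told apart. The same limit holds for other members. Cep290 shares 7.58% with 4930430F08Rik (880 pooled reads), Cep63 2.49% with Anapc13 (2019 pooled reads) and Cep295 0.474% with Taf1d (8241 pooled reads). Cep295 also shares 10.9% with Gm16568, which had 1 pooled read.

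Cep97, which caps the centriole end together with CP110, fell from 4.62 ± 1.06 to 0.959 ± 0.533 CPM (-2.25 ± 0.37, edgeR adjusted p = 0.000524). The distal appendages are the spokes by which a centriole docks at the membrane, and their genes diverged. Cep89 fell from 6.17 ± 0.941 to 2.44 ± 0.867 CPM (-1.33 ± 0.25), and Cep164 from 25.0 ± 1.77 to 15.9 ± 3.73 CPM (-0.66 ± 0.16). Cep83, on which the other appendage proteins assemble, rose: it was at 15.3, 15.5, 14.8 and 16.3 CPM in CLP and at 12.9, 10.6, 12.2 and 11.6 CPM in Sham. The groups did not overlap, but the change was small, 1.31-fold (log2 fold change 0.39 ± 0.11, edgeR adjusted p = 0.0144). With scaling by total counts alone Cep83 had a log2 fold change of -0.17. It did not pass without Sham replicate 2 (0.35, edgeR adjusted p = 0.0511) or with no count filter (0.33, edgeR adjusted p = 0.112). Of the subdistal appendage genes, Cep170 was at 44.1 to 59.3 CPM in CLP and 75.8 to 118.4 CPM in Sham (-0.75 ± 0.16, edgeR adjusted p = 0.00236). Cep128 ranged from 6.83 to 10.5 CPM in CLP and from 8.90 to 15.3 CPM in Sham, short of the threshold (edgeR adjusted p = 0.0589). It passed without CLP replicate 1 (edgeR adjusted p = 0.0257) and without Sham replicate 2 (edgeR adjusted p = 0.0251). It also passed with no count filter (edgeR adjusted p = 0.0356).

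Cep83 shares its promoter with the non-coding transcript Cep83os, which runs the other way from a start 177 bases upstream. Cep83os was at 6.33, 3.46, 3.16 and 3.61 CPM in CLP and at 8.34, 9.57, 4.63 and 9.93 CPM in Sham, so that the groups overlapped. It fell while Cep83 rose (-0.97 ± 0.29, edgeR adjusted p = 0.0162), but did not pass without Sham replicate 4 (-0.85, edgeR adjusted p = 0.0531). The annotation gives the transcripts no exonic base in common. The window is shown because both transcripts start in it (RefSeq, GRCm38.p6, chr10:94688540-94688839, plus strand), and the capitals mark the stretch from the Cep83os start to the Cep83 start.
Cep83 promoter: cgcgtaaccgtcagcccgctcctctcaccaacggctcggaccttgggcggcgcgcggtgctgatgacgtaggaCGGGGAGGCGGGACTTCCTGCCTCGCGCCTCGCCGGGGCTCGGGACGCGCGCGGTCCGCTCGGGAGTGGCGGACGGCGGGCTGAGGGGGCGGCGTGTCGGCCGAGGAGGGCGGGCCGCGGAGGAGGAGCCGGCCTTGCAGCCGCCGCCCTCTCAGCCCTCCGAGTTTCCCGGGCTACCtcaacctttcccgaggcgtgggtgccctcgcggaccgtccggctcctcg

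Of 9 genes tested for the cilium base, the transition zone and the centriolar satellites (granules that move around the centrosome), transcripts of 7 fell and none rose. Cep126, of the same group, had at most 6 reads in any library and was not tested. Among all genes tested, 29.5% fell and 24.9% rose. The largest fall of any Cep gene was that of Cep19 (ENSMUSG00000035790), which brings the GTPase RABL2 to the cilium base so that ciliary transport trains can enter. It had 7, 2, 0 and 5 reads in CLP and 75, 73, 58 and 66 reads in Sham, or at most 0.291 CPM in CLP and 1.95 to 2.29 CPM in Sham. The separation is wide, but the CLP values rest on 14 reads in all, and the fitted log2 fold change was -3.67 ± 0.51 (edgeR adjusted p = 0.00016). The proteins FOP and CEP350 hold Cep19 at the centriole. Cep350, a large anchor of microtubules, was at 271.7, 370.8, 370.9 and 338.4 CPM in CLP and at 302.2, 286.4, 344.2 and 282.7 CPM in Sham. Its groups overlapped (0.15 ± 0.13, edgeR adjusted p = 0.341). Fgfr1op, which encodes FOP and is no member by its symbol, fell from 10.0 ± 0.515 to 6.86 ± 1.97 CPM (-0.55 ± 0.21, edgeR adjusted p = 0.0435). Its relative Fopnl, also no member, rose by 0.33 ± 0.12 on the log2 scale (edgeR adjusted p = 0.0371).

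The windows of Cep19 (RefSeq, GRCm38.p6, chr16:32099539-32099838, plus strand) and of Cep68 (chr11:20249375-20249674, minus strand) are shown for the largest falls that have a window. Capitals mark an ETS core on the other strand (TTCCGG) in Cep19 and 2 NF-Y boxes (ATTGG) in Cep68.
Cep19 promoter: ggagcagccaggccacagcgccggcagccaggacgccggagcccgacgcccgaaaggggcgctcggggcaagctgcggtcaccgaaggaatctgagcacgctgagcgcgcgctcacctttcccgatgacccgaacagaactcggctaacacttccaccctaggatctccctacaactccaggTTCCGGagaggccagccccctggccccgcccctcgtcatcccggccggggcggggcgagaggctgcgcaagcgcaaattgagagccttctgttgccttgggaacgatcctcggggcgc
Cep68 promoter: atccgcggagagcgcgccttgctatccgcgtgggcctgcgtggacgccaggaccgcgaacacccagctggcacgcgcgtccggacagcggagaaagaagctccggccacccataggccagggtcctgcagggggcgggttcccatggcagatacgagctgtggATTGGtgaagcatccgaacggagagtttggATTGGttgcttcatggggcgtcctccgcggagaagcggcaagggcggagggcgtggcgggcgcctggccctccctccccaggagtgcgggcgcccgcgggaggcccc

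The satellite genes Cep72 and Cep131 were among those that fell. Cep72 fell from 3.75 ± 0.775 to 1.02 ± 0.792 CPM (log2 fold change -1.86 ± 0.44), and Cep131, whose protein travels with the satellite scaffold PCM1, from 5.28 ± 1.27 to 1.51 ± 0.907 CPM (-1.79 ± 0.37). For both genes CLP replicate 1 was the highest CLP library, at 2.16 and 2.83 CPM. Without that library the log2 fold change of Cep72 was -2.55. Cep78, a protein of the centriole wall, was at 2.21, 1.05, 0.504 and 1.41 CPM in CLP and at 4.74, 5.64, 7.01 and 6.42 CPM in Sham. The groups did not overlap (-2.19 ± 0.36, edgeR adjusted p = 0.000478). Smaller falls were found for Cep162 (-0.88 ± 0.14), which helps to build the transition zone, and Cep41 (-0.78 ± 0.19), needed for the glutamylation of ciliary tubulin. Cep290, a gatekeeper of the transition zone, was at 22.7 to 39.9 CPM in CLP and 32.3 to 40.3 CPM in Sham, with a log2 fold change of -0.25 ± 0.16 that did not pass (edgeR adjusted p = 0.202). Its highest CLP value was in replicate 1, and without that library it passed as lower (-0.41, edgeR adjusted p = 0.0143).

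**Figure D2:**
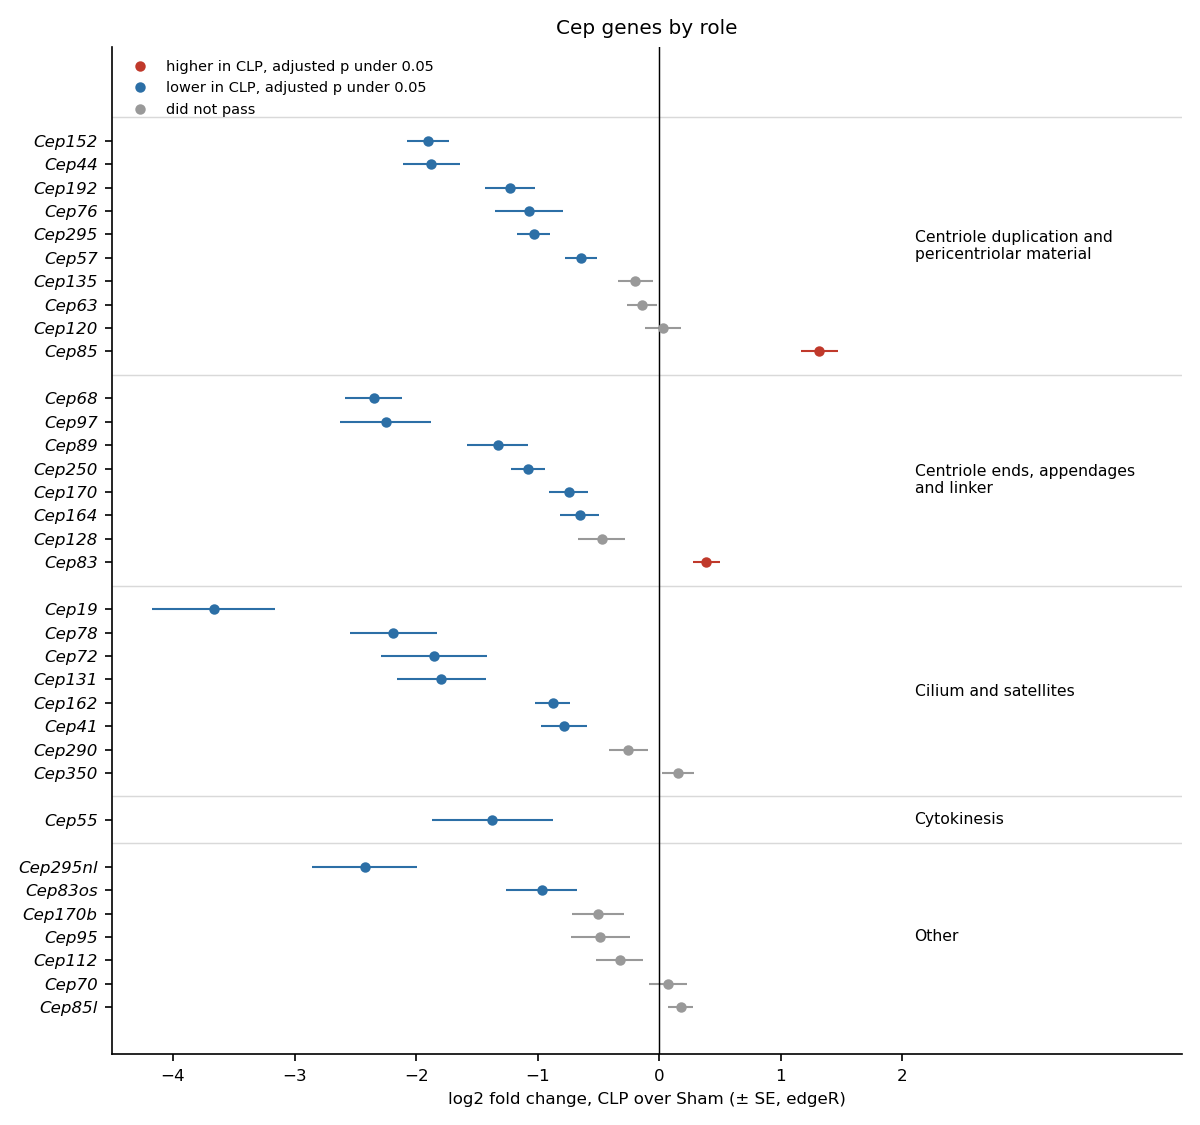
Log2 fold change of CLP over Sham with its SE (edgeR, n = 4 per group) for 34 tested Cep genes, grouped by the role of the protein. Blue points passed as lower, red points as higher and grey points did not pass. Each of the 3 larger role groups holds mostly blue points, with Cep85 and Cep83 to the right of 0. The group of other genes holds 2 blue points among 7.

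Cep55, which recruits the ESCRT machinery that cuts daughter cells apart, is the member tied most closely to cell division. It was at 2.79, 1.94, 0.504 and 1.95 CPM in CLP and at 6.08, 2.62, 2.41 and 7.55 CPM in Sham. Sham replicates 1 and 4 were high and Sham replicates 2 and 3 lay within the CLP range, so the groups overlapped. The log2 fold change was -1.37 ± 0.50 (edgeR adjusted p = 0.0381). On all 8 libraries, Cep55 did not pass with limma voom (limma adjusted p = 0.055) or with no count filter (edgeR adjusted p = 0.0887). Nor did Cep55 pass without CLP replicate 2, 3 or 4, or Sham replicate 1 or 4, with edgeR adjusted p-values of 0.0689 to 0.122. The same Sham libraries were high in Plk1, a mitotic kinase, at 8.65, 3.29, 3.79 and 10.6 CPM, and in Mki67, the proliferation marker, at 169.6, 75.7, 79.6 and 161.5 CPM.

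The remaining members have less settled roles. Of 7 such genes tested, Cep83os among them, transcripts of 2 (28.6%) fell and none rose, against 29.5% and 24.9% of all genes tested. Cep295nl, a short relative of Cep295, had 4 or 5 reads in each CLP library and 24 to 57 in Sham, which gave -2.42 ± 0.43 on the log2 scale (edgeR adjusted p = 0.000789). Its gene lies inside Timp2, on the same strand, with no exonic base in common, and Timp2 itself had 168 ± 42.8 CPM after CLP and 144 ± 22.0 CPM after sham surgery. Any share of unspliced Timp2 RNA in these reads was not tested. Cep112, Cep95 and Cep170b did not pass, with log2 fold changes of -0.33 to -0.51, and neither did Cep70 (0.07) or Cep85l (0.18). Without Sham replicate 1, Cep170b passed as lower (-0.63, edgeR adjusted p = 0.0223), as it did with no count filter (-0.56, edgeR adjusted p = 0.0424). Without CLP replicate 4, the log2 fold change of Cep70 was -0.07. Cep112it, an intronic transcript of Cep112, was at 0.125 to 0.681 CPM in CLP and 0.168 to 0.579 CPM in Sham.

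Related pairs were compared within each library as the difference of their log2 CPM (with 0.1 CPM added), a measure in which the scaling between libraries largely drops out. P-values are from a two-sided exact permutation test, whose smallest value is 0.0286. All 5 pair comparisons were added after the values of these genes had been seen, and adjusted values are over the 5. Cep85 rose relative to Cep85l, which acts in microtubule organization of migrating neurons. The difference lay between -1.01 and -0.22 in CLP and between -1.82 and -1.44 in Sham, so it was higher in 4 of 4 CLP libraries by 1.11 (exact p = 0.0286, adjusted p = 0.0477). Cep57 fell less than Cep57l1, a paralog that went from 4.31 ± 0.697 to 1.11 ± 0.467 CPM. The difference rose by 1.28, again without overlap (exact p = 0.0286, adjusted p = 0.0477). For Cep170 over Cep170b the shift was -0.26 (exact p = 0.0857), with overlapping libraries. For Cep83 over Cep83os it was 1.34 (exact p = 0.0571, adjusted p = 0.0714), and the groups overlapped through Sham replicate 3. For Cep295 over Cep295nl it was 0.89 (exact p = 0.0286), but 0.13 with 0.5 CPM added, since Cep295nl is so low. The adjusted p of 0.0477 for Cep85 over Cep85l and Cep57 over Cep57l1 depends on this pair sharing the smallest p. A p-value with 0.5 CPM added was not computed.

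Per kb of exon, Cep350 was the most abundant Cep transcript in Sham, at 18.4 CPM per kb, followed by Cep120 (8.41), Cep85l (6.82) and Cep170 (4.93). Of the first 3 none passed the test. Cep85 stood at 3.28 CPM per kb in Sham and at 8.17 in CLP, where it came after Cep350 (20.5) and Cep120 (8.58). At the other end were Cep97 (0.504) and Cep72 (0.459) among the genes tested. Within groups, the median coefficient of variation of the tested members was 21.0% in CLP and 11.5% in Sham.

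Calls were also counted by level. Of 16 members with a mean under 10 CPM over the 8 libraries, 13 fell and none rose, against 32.7% and 15.8% of 6731 genes at that level. Of 19 members at 10 CPM or more, 9 fell and 2 rose, against 26.7% and 32.5% of 7924 genes. Across the 35 genes, the log2 fold change ran with the log2 mean CPM at r = 0.679 (0.21 over all genes tested). It also ran with the log2 of the gene span at r = 0.606 (0.0224 over 14594 genes), so that short Cep genes tended to have the larger falls. The shortest genes tested, Cep19 and Cep295nl, had at most 7 and 5 reads in any CLP library. With the log2 of the exon length r was 0.439 (-0.021 over 14594 genes). These correlations are across genes that share the same libraries and are given as a description. The mean CPM includes the CLP libraries, so a gene that fell has a lower mean. Part of the relation with level, and of the counts by level, is thus built in. With transcript GC content r was -0.144.

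**Figure D3:**
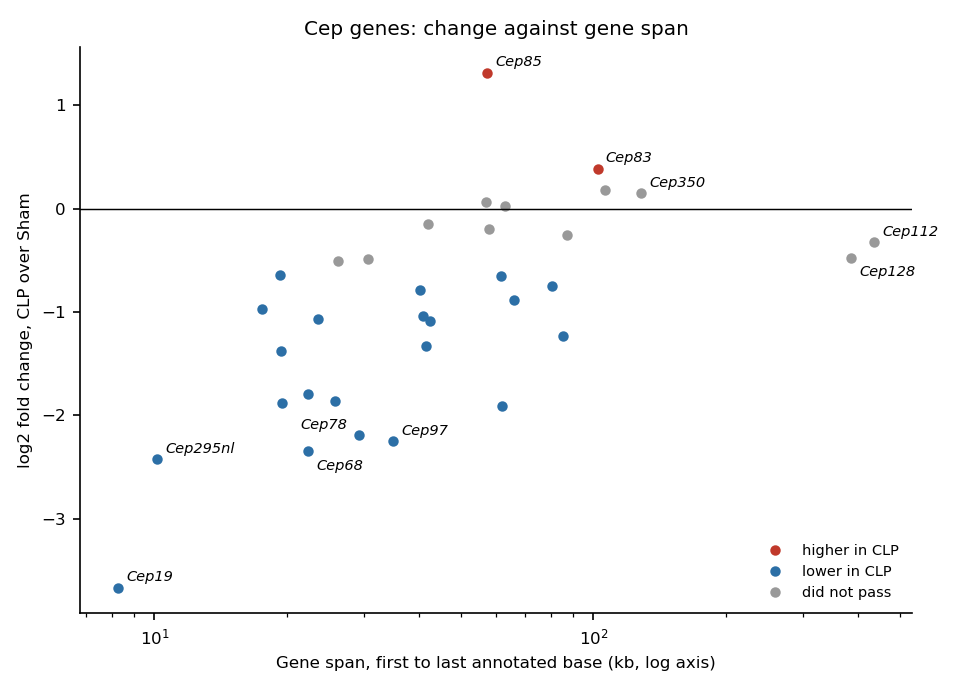
Log2 fold change of CLP over Sham against gene span (kb, log axis, GENCODE M21) for 34 tested Cep genes, coloured by call. Cep19 and Cep295nl, the shortest genes, had the lowest values, which rest on few CLP reads. None of the 5 genes longest in span (Cep112, Cep128, Cep350, Cep85l, Cep83) fell.

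Promoter windows were found for 30 of the 37 members. Their median GC content was 64.0%, against 52.7% over the windows of 27025 genes. The motif shares below were not matched for GC content or for expression. The ETS core CCGGAA, read on both strands, was in 11 of 30 member windows (36.7%), against 15.2% of all windows. It was in 5 of 18 windows of members that fell. The NF-Y box CCAAT was in 14 of 30, against 37.9% of all windows, and in 9 of the 18 that fell. The cell cycle element TTTGAA (CHR) was in 7 of 30, against 18.1%, and in 6 of the 18. The NF-kB letters GGACTTTCC were in no member window and GGAATTTCC in 1, that of Cep112, against 0.34% and 0.322% of all windows. No match says only that these letters are not in this window.

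Other genes of the centrosome and cilium were read from lists that do not hold the members. The counts stand beside 29.5% lower and 24.9% higher over all genes tested. In centriole assembly, 19 of 26 genes tested fell and none rose (median log2 fold change -1.12). Cenpj, which sets centriole length, fell from 11.5 ± 0.757 to 3.05 ± 0.232 CPM (-1.91 ± 0.14, edgeR adjusted p = 4.76e-06), Rttn by 1.74 and the cartwheel protein Sass6 by 1.15 on the log2 scale. In the pericentriolar material, 14 of 28 fell and none rose (median -0.58). The lowest p-values were those of the augmin subunit Haus3 (-2.05 ± 0.18), the linker protein Lrrc45 (-1.45 ± 0.16) and the gamma-tubulin ring subunit Tubgcp6 (-1.02 ± 0.12). Satellites and appendages had 9 of 18 lower and 2 higher (median -0.24). The satellite genes Ccdc66 and Bbs4 fell (-2.14 ± 0.24 and -1.44 ± 0.20). Ssx2ip, which anchors microtubules at the centrosome, rose from 3.83 ± 0.819 to 16.2 ± 1.82 CPM (2.08 ± 0.18, edgeR adjusted p = 9.59e-06), and the vesicle GTPase Rab8a by 0.58 ± 0.11. In the list of the cilium gate and ciliary transport, 19 of 38 fell and none rose (median -0.62). Among those that fell were Mks1 (-2.65 ± 0.26), of the transition zone, and the transport subunit Ift46 (-1.08 ± 0.13).

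Mitosis and S phase genes fell in 19 of 29 cases and 1, Mki67, rose (median -1.09), against 29.5% and 24.9% of all genes. Plk1 fell from 6.58 ± 3.61 to 0.953 ± 0.511 CPM (-2.77 ± 0.47, edgeR adjusted p = 0.000644), and Ect2, which starts the cleavage furrow, by 1.76 ± 0.38 on the log2 scale. Mki67 went the other way, at 414.1, 545.8, 465.4 and 454.6 CPM in CLP against 75.7 to 169.6 CPM in Sham (1.95 ± 0.27, edgeR adjusted p = 0.000167). This count was the least stable: it was 8 without CLP replicate 2, 8 without Sham replicate 1, 8 without Sham replicate 4, 12 without CLP replicate 3 and 11 without CLP replicate 4. The 4 centrosome and cilium lists kept lower counts of 16 to 22, 11 to 19, 8 to 9 and 15 to 23, in the order above, when single libraries were left out. In those fits 24.9% to 33.1% of all genes tested were lower.

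**Figure D4:**
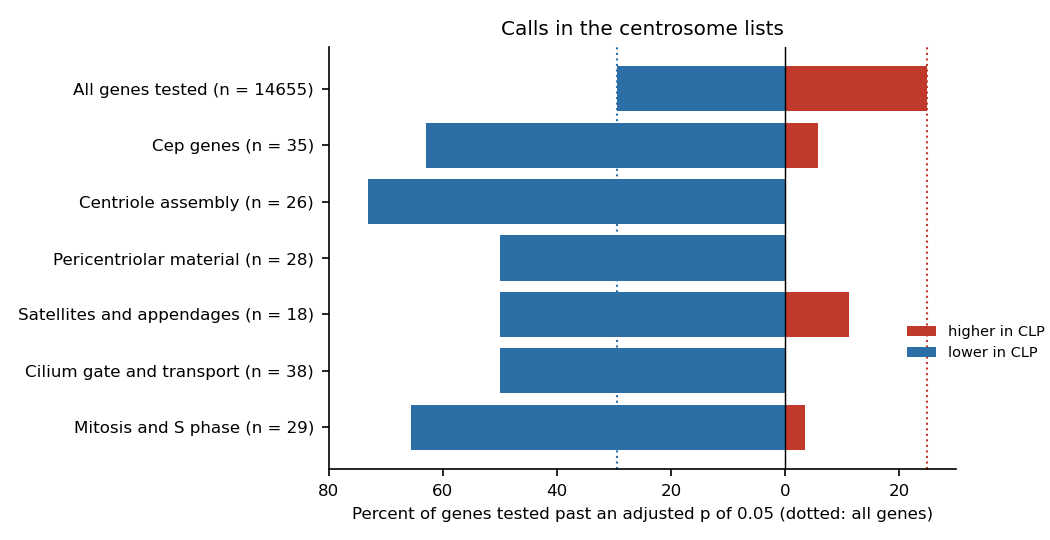
Percent of genes tested that passed an adjusted p of 0.05 (edgeR) as lower (blue, left) or higher (red, right) in CLP, for all genes, the Cep genes and 5 lists of related genes. Dotted lines mark 29.5% and 24.9% over all genes, and each list extends past the left line and stays short of the right one.

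The libraries carried Kupffer cell markers at high levels, with Clec4f at 8920.0 ± 899.7 CPM after CLP and 7374 ± 740.0 CPM after sham surgery. The 12 Kupffer cell markers summed to 38140.0 to 49280.0 CPM in CLP and 29870.0 to 38320.0 CPM in Sham. Neutrophil markers summed to 258 to 671 CPM and 102 to 145 CPM, with 10 of 10 tested members higher, and platelet markers to 126 to 202 and 15.5 to 28.4 CPM, with 8 of 8 higher. Sums for monocytes were 225 to 369.9 and 174 to 292 CPM, for endothelium 2314 to 2821 and 1595 to 2019 CPM, and for hepatocytes 4898 to 6203 and 3716 to 4904 CPM. B cell markers, of which 8 of 10 were higher and 1 lower, summed to 81.9 to 96.8 and 67.2 to 78.3 CPM, T and NK cell markers to 17.3 to 30.6 and 11.1 to 21.8 CPM. Erythroid markers summed to 11.4 to 16.6 and 7.34 to 14.0 CPM, stellate and bile duct markers to 41.8 to 64.9 and 33.6 to 42.0 CPM. No sum passed after adjustment over 10 sums (two-sided exact permutation, smallest adjusted p = 0.0714). With 4 libraries per group this test cannot give a p under 0.0286. A single fully separated sum could therefore not pass after adjustment, and not passing does not show equal levels. Sums for neutrophils, platelets, endothelium and B cells were higher in 4 of 4 CLP libraries than in every Sham library with TMM. With total counts alone the ratio of CLP to Sham was below 1 for endothelium (0.920) and B cells (0.825), and 2.62 for neutrophils and 5.62 for platelets. Among markers, 1 platelet and 1 erythroid gene had no reads. The most abundant markers per list were named for each cell type. Mean CPM after CLP and after sham surgery was 6451 and 5316 for Cd5l, 247 and 99.2 for Csf3r, 58.1 and 5.88 for Lcn2, 148 and 18.1 for Pf4, and 13.6 and 1.26 for Ppbp. It was 264 and 205 for Plac8, 1914 and 1277 for Cdh5, 293 and 302 for Stab2, 2263 and 1710.0 for Alb, and 2218 and 1737 for Trf. For the scarcer lists it was 61.0 and 62.3 for Cd22, 4.56 and 8.57 for Cd79b, 21.3 and 16.3 for Cd4, 0.959 and 0.217 for Gzma, 8.90 and 4.71 for Alas2, 1.85 and 4.62 for Epor, 18.9 and 13.5 for Dcn, and 14.0 and 10.7 for Reln. Csf3r, Lcn2, Pf4, Ppbp, Cdh5, Trf, Alas2 and Dcn rose, and Cd79b and Epor fell (edgeR adjusted p under 0.05). The part of other cells in the Cep values was not tested.

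Among the CLP libraries, replicate 1 was set off along both leading principal components. On the first (76.7% of the variance) it lay at -45.17, against -82.26 to -78.15 for the other CLP libraries and 59.36 to 82.92 for Sham. On the second (9.99%) it lay at 58.6, against -21.57 to -7.827. In 17 of the 22 Cep genes that fell it was the highest CLP library (77.3%), as it was in 51.1% of all genes that fell. Without it, 24 of 36 Cep genes tested passed as lower and 2 as higher, against 33.1% and 28.0% of all genes tested.

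**Figure D5:**
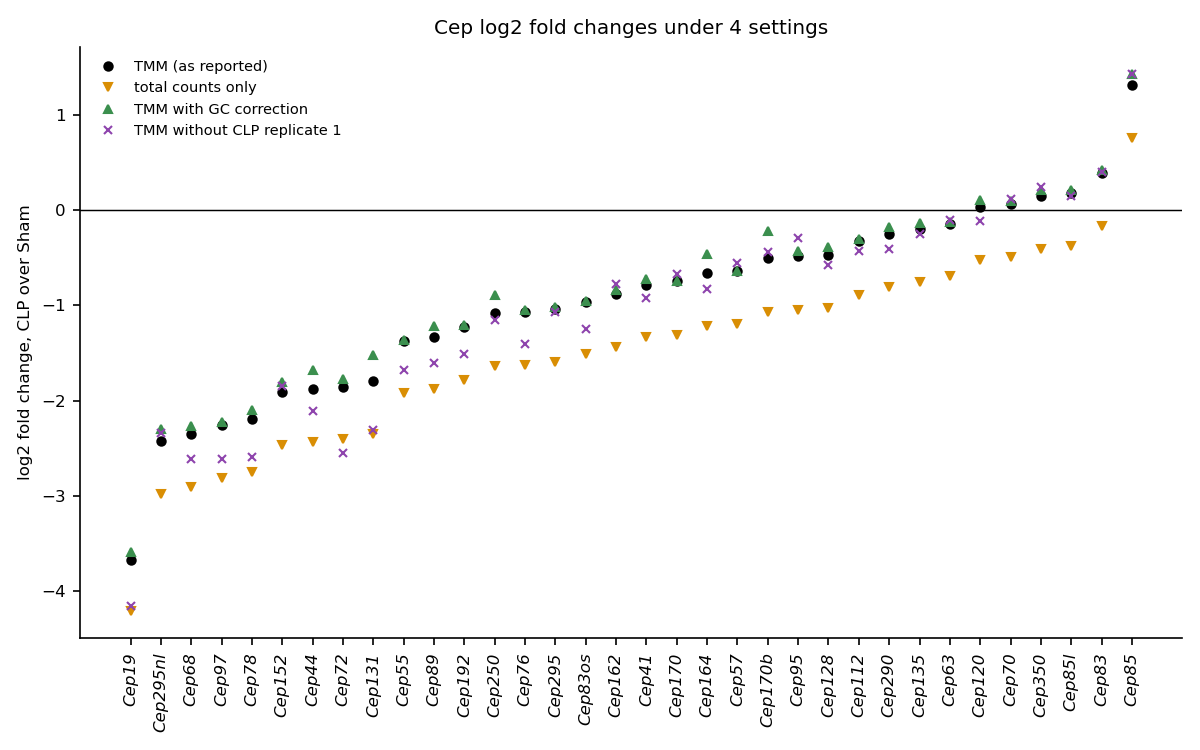
Log2 fold change of CLP over Sham for 34 tested Cep genes with TMM scaling, with total counts only, with TMM and a correction for GC content, and with TMM but without CLP replicate 1. Total counts shift every gene down by about the same amount, so that Cep83, Cep85l, Cep350, Cep70 and Cep120 cross 0 while Cep85 stays above it.

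The direction of small changes depended on the scaling. TMM factors were 0.825 ± 0.0165 in CLP and 1.21 ± 0.0557 in Sham. With total counts alone the log2 fold changes of all genes moved by a median of -0.55, and 17.1% of calls were upward in place of 45.8%. Under that scaling 33 of 35 Cep genes were lower and 1, Cep85, was higher, against 56.6% and 11.7% of all genes. With the other alternatives run on the 8 libraries, 21 to 23 Cep genes were lower and 1 or 2 higher. All genes tested were then lower in 17.2% to 29.9% and higher in 13.1% to 29% of cases.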

How the data were processed

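RNA-seq of sorted Kupffer cells gave 8 libraries, 4 after CLP and 4 after sham surgery. The deposited table holds raw read counts per Ensembl gene. FastQC, STAR 2.7.10b, featureCounts, DESeq2 and the assembly mm39 are named in the submitters' processing notes. The sources used here give neither the gene annotation nor whether counting used strand, so overlapping and antisense transcripts may share reads.

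Symbols, exon lengths, gene spans and transcript GC content came from GENCODE M21 (GRCm38), in which 52081 of 55414 IDs have a symbol. Promoter windows came from RefSeq on GRCm38.p6. The files use mm39, so windows were matched by symbol alone.

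The test was the robust quasi-likelihood F-test of edgeR 4.0.16 in R 4.3.3, with surgery as the only term, after filterByExpr and TMM scaling. Benjamini-Hochberg adjustment ran over 14655 genes, and 0.05 was the threshold. CPM values use the TMM-scaled totals. An SE was taken as the absolute log2 fold change divided by the square root of F. Alternatives used DESeq2 1.42.0, limma voom 3.58.1, other scalings, no count filter, a GC correction, the replicate block and single libraries left out. Scripts were tested on simulated data.

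The rule for naming was every member, the 3 smallest p-values of each other list and the 2 most abundant genes of each marker list, with sequences for the largest changes and the paralog pairs. Paralog sequences are not shown, and 1 member and 2 genes of other lists that the rule names are not reported here, though they stand in the counts and the sums. The Cep83 window, Cep57l1, Rab8a, Timp2, Fopnl and Fgfr1op were chosen after values were seen. Marker lists covered Kupffer cells, neutrophils, monocytes, endothelium, hepatocytes, B cells, T and NK cells, platelets, erythroid cells, and stellate and bile duct cells. The members and lists were chosen with earlier results of these data known.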

Additional observations from a re-analysis of the deposited data

Results flagged for a closer look

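In groups of 4 libraries, a value was set apart where its gap to the nearest other library exceeded 0.829 of the range of the group (Dixon's 95% critical value). Of 70 groups checked (35 Cep genes in CLP and in Sham), 3 held such a value, and chance gives about 1 in 20. Cep192 was at 33.6 CPM in CLP replicate 1 and at 16.6 to 19.0 CPM in the other CLP libraries. Cep83os was at 6.33 CPM in CLP replicate 1 and at 3.16 to 3.61 CPM in the others. Cep295nl was at 1.91 CPM in Sham replicate 3 and at 0.733 to 0.884 CPM in the other Sham libraries.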

How the results depend on the processing

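Of the 22 Cep genes that fell, 20 kept their direction and their side of the threshold under each of 16 alternatives, and Cep55 and Cep83os did not. With total-count scaling 1715 genes were higher and 8292 lower, 1 Cep gene was higher, 28 pericentriolar material genes, 15 satellite and appendage genes and 34 cilium genes were lower, and 1 satellite and appendage gene was higher. Log2 fold changes then had the other sign for Cep70 (-0.49), Cep83 (-0.17), Cep85l (-0.38), Cep120 (-0.52) and Cep350 (-0.41). With no count filter 1 Cep gene, Cep85, was higher and Cep83 did not pass, 9 mitosis and S phase genes were lower, and Cep120 was at -0.0242. Without the filter 27561 genes were tested. Cilium genes higher numbered 2 with DESeq2 size factors in edgeR, 2 with DESeq2, and 1 with limma voom. Leaving out single libraries gave 1 to 2 Cep genes higher and 20 to 24 lower, 0 to 1 cilium genes higher and 8 to 23 mitosis and S phase genes lower. Of all genes tested in those fits, 21.7% to 28% were higher and 24.9% to 33.1% lower. With single libraries left out, the log2 fold change of Cep120 ran from -0.1124 to 0.1516 and that of Cep70 from -0.0673 to 0.1645. The cause of these shifts was not tested. With 0.5 CPM added, the shift of Cep295 over Cep295nl was 0.13.

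Replicate numbers are shared between the groups. Same-numbered libraries deviated together only weakly (r = 0.172, -0.125, 0.126 and -0.0853), which does not settle whether the numbers pair the samples. With the replicate block, 22 Cep genes were lower and 2 higher, against 29.4% and 23.8% of all genes tested. In the cilium list 1 gene was higher, also with the GC correction. With the block alone, 22 centriole assembly, 15 pericentriolar material, 8 satellite and appendage, 19 cilium and 24 mitosis and S phase genes were lower.

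Marker sums, as the ratio of CLP to Sham, passed with DESeq2 size factors for Kupffer cells (1.25), neutrophils (4.01), endothelium (1.40), hepatocytes (1.32), B cells (1.26), platelets (8.54) and stellate and bile duct cells (1.49). With total-count scaling they fell below 1 for Kupffer cells (0.821), monocytes (0.861), endothelium (0.920), hepatocytes (0.861), B cells (0.825), T and NK cells (0.974), erythroid cells (0.870) and stellate and bile duct cells (0.972).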
